A study of Homo sapiens with 6 samples.

Results

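PDGFA and VEGFA encode secreted growth factors whose transcripts carry alternative exons for a retention motif, and this account gives the inclusion of those exons with and without RBM47, an RNA-binding protein. Every row of the splicing table named PDGFA or VEGFA was taken, which gave 5 of 24725 cassette exon events, 1 in PDGFA and 4 in VEGFA. A cassette exon is one that is either joined to both neighbours or skipped. The genes were chosen by the measured difference in inclusion between RBM47 and control cells, so that difference is given as a description. Where calls by a threshold are counted, they stand beside the share of all events called and are not offered as tests of these genes.

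PolyA RNA was sequenced with paired ends from MDA231-BrM2a cells, human breast cancer cells derived from MDA-MB-231 that metastasise to the brain. The 3 control samples came from a non-clonal population with the empty vector pRetroX-Tight-Pur. The 3 RBM47 samples came from 1 clone (wt#10) carrying the same vector with doxycycline-inducible, Flag-tagged wild-type RBM47. All 6 samples had received doxycycline at 10 ng/ml for 3 days. RBM47 expression and clonal origin cannot be told apart, since clonality differed between the groups in the same way as the transgene.

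PDGFA is a ligand of the PDGF receptors and drives the growth of mesenchymal cells. VEGFA drives the growth of blood vessels and is made by many tumours. In both genes a short alternative exon encodes a stretch rich in lysine and arginine that binds heparan sulfate, and isoforms with it stay near the cell surface and matrix while isoforms without it diffuse more freely. In VEGFA the following exon also adds to heparin binding, and isoforms that lack both exons diffuse most readily.

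The table gives the outer ends of each event but no exon, and its genome build is not given in the sources used here. Exons were therefore matched by gene and outer span to the GENCODE annotation of GRCh37. The PDGFA event (chromosome 7, 504501 to 507404 in the table) matched a single annotated exon, exon 6 of 69 bases at chromosome 7, 540068 to 540136 on the minus strand, with one outer end inside the annotated exon 7. The last part of this exon lies beyond its stop codon. The first 3 VEGFA events share the same outer ends (chromosome 6, 43854603 to 43857801 in the table). They matched exactly the span from exon 5 to exon 7, where exon 6 is annotated with 1 start, 43748469, and 3 ends, 43748522, 43748540 and 43748591 on the plus strand. The fourth VEGFA event (43854603 to 43860623 in the table) matched exon 7 of 132 bases, at 43749693 to 43749824, between exon 5 and the last exon, with one outer end inside that last exon. The table does not say which of the 3 ends belongs to which exon 6 event, so these are named here by their including reads in control cells, 71, 72 and 121.

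The coding bases of these exons are shown because they carry the motif itself. Capitals mark whole codons for lysine or arginine, and sequences are from GRCh37, written 5′ to 3′ on the coding strand.
PDGFA exon 6, coding part: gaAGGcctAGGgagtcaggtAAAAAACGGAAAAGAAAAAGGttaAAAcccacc
VEGFA exon 6, shortest form: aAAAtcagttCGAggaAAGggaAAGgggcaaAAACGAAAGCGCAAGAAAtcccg
VEGFA exon 6, middle form: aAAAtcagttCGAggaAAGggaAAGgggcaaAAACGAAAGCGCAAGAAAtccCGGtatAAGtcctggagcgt
VEGFA exon 6, longest form: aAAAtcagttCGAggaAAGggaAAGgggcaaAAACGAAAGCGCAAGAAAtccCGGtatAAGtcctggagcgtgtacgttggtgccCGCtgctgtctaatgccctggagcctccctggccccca
VEGFA exon 7: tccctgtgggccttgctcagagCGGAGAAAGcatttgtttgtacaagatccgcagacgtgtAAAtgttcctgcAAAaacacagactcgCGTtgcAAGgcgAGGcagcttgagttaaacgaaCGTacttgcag

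PDGFA exon 6 held 10 lysine or arginine codons among 17 whole codons (58.8%), and the shortest form of VEGFA exon 6 held the same, 10 of 17. The middle form had 12 of 23 (52.2%) and the longest 13 of 40 (32.5%). Over 107176 internal, wholly coding annotated exons of 50 to 150 bases, with alternative forms counted separately, the median share was 10.8% and the 95th percentile 24.0%. A share of at least 58.8% was reached by 6 of them, the shortest VEGFA form among them, and a share of at least 52.2% by 29. VEGFA exon 7 had 9 of 43 (20.9%), below that 95th percentile. The label of a retention motif thus matched the sequence of PDGFA exon 6 and of VEGFA exon 6, and the exon 7 event is kept apart from it below.

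**Figure D1:**
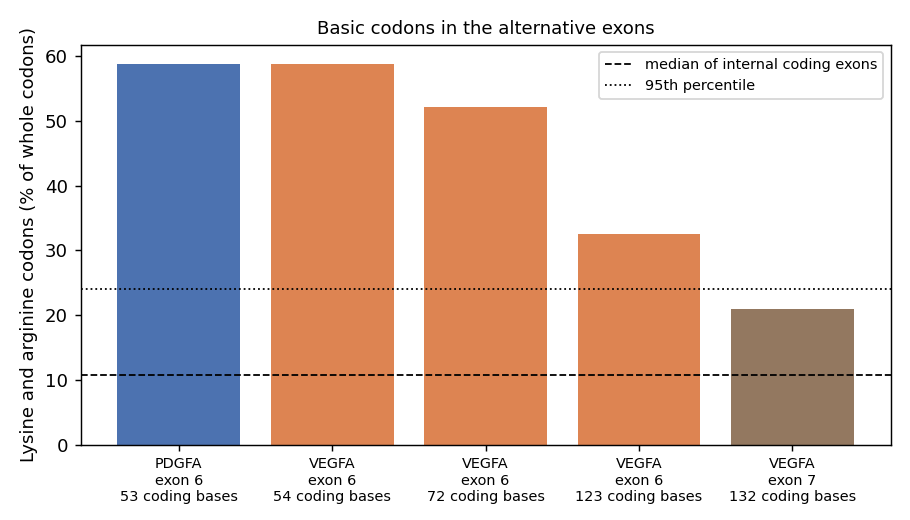
Lysine and arginine codons as a percentage of the whole codons in the coding part of each alternative exon; the dashed and dotted lines are the median (10.8%) and 95th percentile (24.0%) of internal coding exons. PDGFA exon 6 and all 3 forms of VEGFA exon 6 lie above the dotted line and VEGFA exon 7 below it.

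The splice sites show how the VEGFA exon 6 forms differ, since they share 1 acceptor and have 3 donors. In the next lines small letters are intron and capitals are exon.
PDGFA exon 6 acceptor: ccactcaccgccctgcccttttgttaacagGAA
VEGFA exon 6 acceptor: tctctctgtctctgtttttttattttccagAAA
VEGFA exon 7 acceptor: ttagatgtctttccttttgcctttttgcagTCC
PDGFA exon 6 donor: CAGgtagga
VEGFA exon 6 donor, shortest form: CCGgtataa
VEGFA exon 6 donor, middle form: CGTgtacgt
VEGFA exon 6 donor, longest form: CCAgtacaa
VEGFA exon 7 donor: CAGgttggt

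Pyrimidines made up 70.0% of the last 20 intron bases before PDGFA exon 6, the same as the median over the internal coding exons. They made up 80.0% before VEGFA exon 6 and before VEGFA exon 7, a share that 94.1% of the internal coding exons did not exceed. These are descriptions of the sequence, and their part in inclusion was not tested.

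The rates below were re-matched to their rows. With I the reads over the junctions on either side of an included exon and S the reads over the skipping junction, the inclusion rate of a sample is I/(I + 2 S). In 1392 of 24725 rows (5.63%), including all 5 PDGFA and VEGFA rows, the deposited rates of a row did not average to the group averages in that row. For the 4 VEGFA rows exactly 1 other row held rates with both averages, and those rates were used. For PDGFA the rates were found through the RBM47 average alone. Its control rates, with a mean of 0.0563 against a control average of 0.833 printed in that row, thus rest on that single match. Over the 253 events matched in that way, the matched control rates and those computed from read totals had r = 0.968 across events, against 0.988 over the 23333 rows aligned as deposited. For the RBM47 rates r was 0.891 over those 253 events and 0.987 over the aligned rows. Events are not independent replicates, and r here only describes the matching.

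Read totals were deposited for each group and not for each sample, and sample counts were not worked back from the rates. Over all events they came to 26498401 reads in control and 24116982 in RBM47 cells, with a median of 362 and 294 per event. Among genes that mark the cell type, VIM and CD44, both high in mesenchymal-like breast cancer cells, had events with up to 171444 and 10845 control reads, and up to 122643 and 4442 RBM47 reads. The fibronectin gene FN1 had up to 2953 and 1051 reads and MSN, which encodes moesin, up to 550 and 282. The largest event total of each of these 4 genes was lower in RBM47 cells, where the median over all events was lower too. The part of these shifts in the inclusion rates was not tested. ERBB3, a luminal epithelial gene, had 1 event with 33 control and 20 RBM47 reads. No row was named for the epithelial genes CDH1 and EPCAM, for ESR1, for the endothelial and leukocyte genes PECAM1 and PTPRC, or for RBM47 itself, so the level of the transgene was not checked here.

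PDGFA exon 6 was included in few control transcripts and in most transcripts of RBM47 cells. The inclusion rate was 0.0710, 0.0370 and 0.0608 in control replicates 1, 2 and 3. It was 0.621, 0.679 and 0.719 in RBM47 replicates 1, 2 and 3. All 3 RBM47 samples lay far above all 3 control samples, with no overlap. The control mean was 0.0563 ± 0.0174 (SD, n = 3) and the RBM47 mean 0.673 ± 0.0489 (SD, n = 3), a difference of 0.617 in rate. The RBM47 mean was 12.0 times the control mean, a fold that rests on the low control rates and was 6.02 with rates from the read totals.

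The PDGFA read totals, which were not used to match the rates, moved in the same direction. Including reads numbered 61 in control and 327 in RBM47 cells, 5.36 times as many. Skipping reads numbered 235 and 73, a ratio of 0.311 between RBM47 and control. Including reads were 20.6% of the total in control cells (95% Wilson interval 16.4% to 25.6%) and 81.8% in RBM47 cells (77.7% to 85.2%). These intervals cover counting error only, and the shares are higher than the rates because an included exon has 2 junctions and because the including totals hold further reads. With 2 times the skipping reads in the denominator, the totals gave rates of 0.115 and 0.691.

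**Figure D2:**
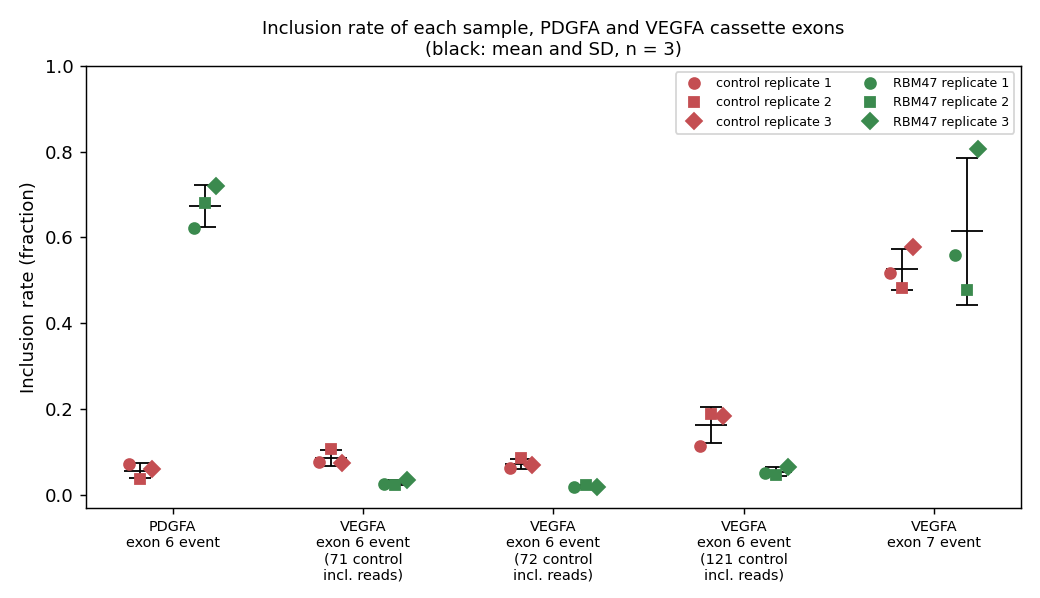
Inclusion rate (fraction, vertical axis) of each sample for the PDGFA event and the 4 VEGFA events, with control samples in red, RBM47 samples in green and the mean ± SD (n = 3) in black. PDGFA rises from 0.0563 to 0.673, the exon 6 events of VEGFA lie lower in RBM47 cells without overlap, and the exon 7 rates overlap.

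VEGFA exon 6, the counterpart of PDGFA exon 6, was included less in RBM47 than in control samples, from low rates in both groups. In the event with 121 control reads the rate was 0.114, 0.189 and 0.184 in control replicates 1, 2 and 3. It was 0.0508, 0.0455 and 0.0656 in RBM47 replicates 1, 2 and 3. Every RBM47 sample was below every control sample. The means were 0.162 ± 0.0418 (SD, n = 3) and 0.0540 ± 0.0104 (SD, n = 3), a difference of -0.108, and the control mean was 3.01 times the RBM47 mean.

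In the event with 71 control reads the rate was 0.0762, 0.107 and 0.0751 in control replicates 1, 2 and 3. It was 0.0261, 0.0233 and 0.0339 in RBM47 replicates 1, 2 and 3. The groups did not overlap, and the means were 0.0862 ± 0.0182 (SD, n = 3) and 0.0277 ± 0.00551 (SD, n = 3). In the event with 72 control reads the rate was 0.0628, 0.0854 and 0.0698 in control replicates 1, 2 and 3. It was 0.0175, 0.0233 and 0.0172 in RBM47 replicates 1, 2 and 3. Again no RBM47 sample reached the lowest control sample, with means of 0.0726 ± 0.0116 (SD, n = 3) and 0.0193 ± 0.00339 (SD, n = 3). The differences were -0.0584 and -0.0533 in rate, with control means 3.11 and 3.75 times the RBM47 means.

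The 3 exon 6 events are not independent. In the annotation all forms share the junction from exon 5 into exon 6, and each event has the same skipping total, 252 reads in control and 134 in RBM47 cells, over the junction from exon 5 to exon 7. Including totals were 121, 71 and 72 in control and 21, 12 and 11 in RBM47 cells. Control cells thus had 5.76, 5.92 and 6.55 times as many including reads, against 1.88 times as many skipping reads. In the event with 121 control reads, including reads were 32.4% of the total in control (Wilson interval 27.9% to 37.3%) and 13.5% in RBM47 cells (9.04% to 19.8%). These intervals cover counting error of pooled reads only, not the spread between samples.

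VEGFA exon 7, which extends the heparin-binding part, was included at rates that overlapped between the groups. The rate was 0.517, 0.483 and 0.576 in control replicates 1, 2 and 3. It was 0.558, 0.478 and 0.806 in RBM47 replicates 1, 2 and 3. RBM47 replicate 3 was the highest of all 6 samples and RBM47 replicate 2 the lowest, so the groups overlapped. The means were 0.525 ± 0.0472 (SD, n = 3) and 0.614 ± 0.171 (SD, n = 3), and these differ by 0.0885, less than the SD of the RBM47 samples. Without RBM47 replicate 3 the difference was -0.00733.

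Control cells had 506 reads that included exon 7 and 202 that skipped it, and RBM47 cells had 305 and 78. Including reads were 71.5% (Wilson interval 68.0% to 74.7%) in control and 79.6% (75.3% to 83.4%) in RBM47 cells, a comparison of pooled reads that does not see the spread between samples. The skipping reads of this event join exon 5 to the last exon and leave out exons 6 and 7. Among reads that joined exon 5 either to exon 7 or to the last exon, those to exon 7 were 252 of 454 in control (55.5%, Wilson interval 50.9% to 60.0%) and 134 of 212 in RBM47 cells (63.2%, 56.5% to 69.4%). These intervals overlapped. RBM47 reads were 0.532 times control reads for the junction from exon 5 to 7 and 0.386 times for the junction from exon 5 to the last exon.

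**Figure D3:**
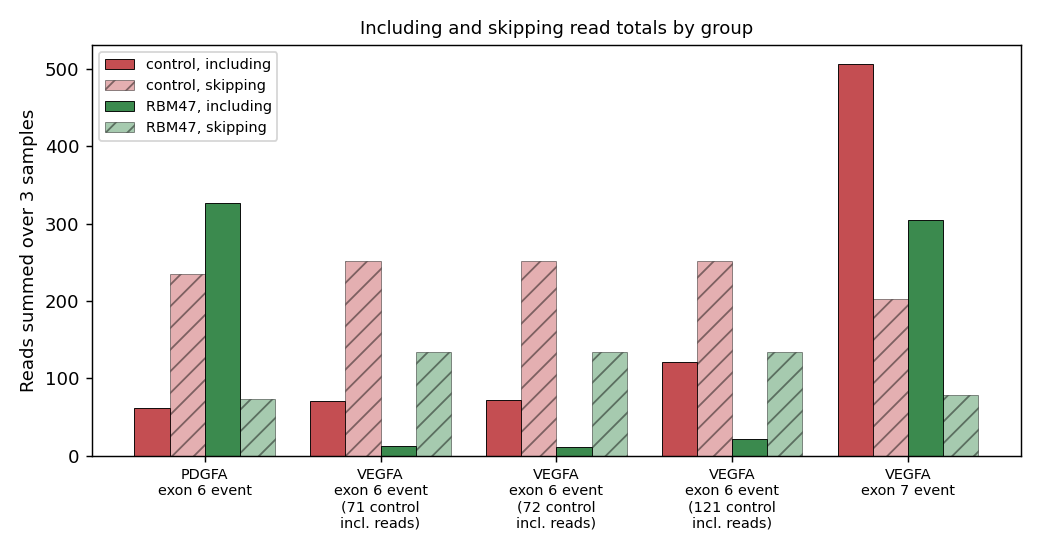
Reads summed over the 3 samples of a group (vertical axis) that included or skipped the exon in each event, for control (red) and RBM47 (green). In PDGFA the including reads rise from 61 to 327 and the skipping reads fall from 235 to 73, while every VEGFA total is lower in RBM47 cells.

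Junction reads of the VEGFA events were fewer in RBM47 cells, while those of PDGFA depended on how included exons were counted. An included exon has 2 junctions and a skipped one has 1, so the total of an event rises with inclusion alone. With including reads halved, PDGFA had 265.5 control and 236.5 RBM47 reads, a ratio of 0.891, beside a median of 0.867 over the 22982 events in which both groups had 30 reads or more. The plain totals, 296 and 400, gave a ratio of 1.35. The VEGFA events had halved ratios of 0.462 to 0.507 and plain ratios of 0.416 to 0.541, below the lower quartile of all events, which was 0.663 halved and 0.664 plain. These are single totals per group with no replicate check. In such bulk samples fewer cells using a gene and less RNA per cell cannot be told apart, and the part of RNA level in the inclusion rates was not tested.

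Across all 5 events, rates did not overlap between groups in 4, namely PDGFA and the 3 exon 6 events of VEGFA, against 9.93% of all 24708 events with rates. By the study criteria, a Fisher's exact p of at most 0.05 from the read totals, a difference of at least 0.2 and at least 10 reads, 1 event passed, that of PDGFA, against 1.41% of all events. limma, applied to the rates of events with an overall mean of 0.1 to 0.9, tested 3 of the 5 and called 1, again PDGFA, against 1.53% of 6000 events. Events were called where the adjusted p was under 0.05 and the means lay 0.2 or more apart. Since the genes were chosen with these differences known, nothing is read from the 3 counts.

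Other events with similar rates were looked up by the Euclidean distance over the 6 sample rates, among 22968 events of other genes in which both groups had 30 reads or more. The nearest to PDGFA were a pair of SEC31A events, which encode part of the COPII vesicle coat, at distances of 0.135 and 0.140. One rose from a mean rate of 0.0827 in control to 0.620 in RBM47 cells and the other from 0.0639 to 0.615. The nearest to the VEGFA exon 6 event with 121 control reads were in ARNTL (0.0514), MGME1 (0.0592) and PXN (0.0653). For VEGFA exon 7 they were in PCM1 (0.163), CARD16 (0.165) and ZRANB2 (0.168). Likeness was ranked on the same rates, and says nothing of shared control.

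The next comparison asked whether alternative exons of other secreted growth factors differed between the groups. The other ligands of the PDGF and VEGF family with rows were PDGFC, PGF and VEGFB, with 7 events. A PDGFC exon was included at 0.315, 0.385 and 0.400 in control and 0.376, 0.362 and 0.434 in RBM47 replicates 1, 2 and 3 (difference 0.0241, limma adjusted p = 0.899). A PGF exon, in placental growth factor, was included at 0.211, 0.488 and 0.353 in control and 0.517, 0.429 and 0.358 in RBM47 replicates 1, 2 and 3 (difference 0.0839, limma adjusted p = 0.822). In both genes the groups overlapped, and the other 5 events of these 3 genes had mean rates over 0.9 and were not tested.

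Together with 16 further genes listed as growth factors, 54 events in 19 genes had rates. limma tested 11 of them and called 0, 0 had an unadjusted limma p under 0.05, and adjusted p ran from 0.669 to 0.970. Fisher's exact test on the pooled reads gave a p of at most 0.05 in 7 of the 54 events, and in 3 after adjustment over all events. The shares of all events with such Fisher p-values, or with an unadjusted limma p under 0.05, are not given here. Nothing is read from those counts. The study criteria were met by 0 of 54. With 1.53% of all tested events called by limma and 1.41% of all events past the study criteria, counts of 0 are near the background, here and in the lists that follow, and are no result about growth factors. Differences ran from -0.172 to 0.125 with a median of 0, and the median over all events was also 0. Of the 54 events, 30 had a mean rate over 0.9 and 13 under 0.1, which leaves little room for a change in one direction. The 10 events named GDF5 spanned 10158 to 67337 bases, against 21424 bases for the annotated gene, and may hold reads of another gene.

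FGF1, BMP1 and GRN were picked out of this list after their values were seen. FGF1, a fibroblast growth factor, had a pair of events that share skipping totals and did not overlap between groups. One was included at 0.776, 0.758 and 0.780 in control and 0.797, 0.808 and 0.813 in RBM47 replicates 1, 2 and 3, a difference of 0.0349 (limma adjusted p = 0.669). BMP1, a metalloproteinase that cleaves procollagen, is listed here through its name among the bone morphogenetic proteins and is not itself a growth factor. It had an exon included at 0.0323, 0.0323 and 0.0164 in control and 0.174, 0.148 and 0.136 in RBM47 replicates 1, 2 and 3. All RBM47 samples were higher, by 0.125 on average, and Fisher's exact test on the totals gave a Benjamini-Hochberg adjusted p of 0.000240. Its mean rate was under 0.1, so limma did not test it. GRN, the precursor of granulins, had a pair of events with the same skipping total, in which Fisher's test passed adjustment but the rates overlapped, with a difference of 0.0139 in one and 0.0143 in the other. Groups did not overlap in 3 of the 54 events, against 9.93% of all events.

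Receptors and matrix partners of the ligands were examined in the same way. The receptors and co-receptors had 12 events in 5 genes, of which limma tested 5 and called 0. A NRP1 exon, in a co-receptor that binds VEGFA, was included at 0.827, 0.798 and 0.776 in control and 0.898, 0.825 and 0.883 in RBM47 replicates 1, 2 and 3 (difference 0.0687, limma adjusted p = 0.460). A PDGFRA exon, in the receptor for PDGFA, was included at 0.342, 0.435 and 0.351 in control and 0.342, 0.434 and 0.404 in RBM47 replicates 1, 2 and 3 (difference 0.0174, limma adjusted p = 0.919). Groups overlapped in both. Heparan sulfate proteoglycans and the enzymes that build them had 23 events in 13 genes, with 1 tested by limma, that of XYLT2 (difference -0.107, limma adjusted p = 0.557), and 0 called. By the study criteria 0 of the 12 and 0 of the 23 events passed.

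**Figure D4:**
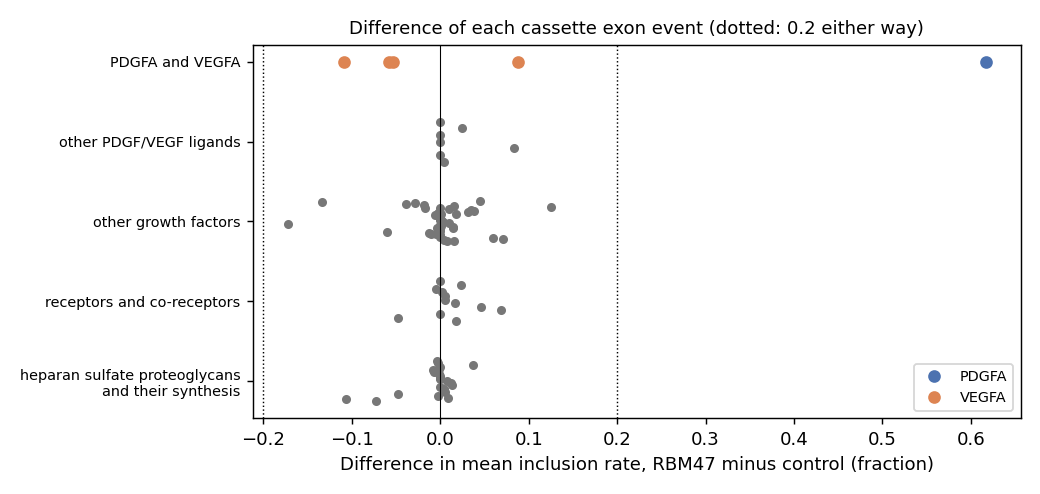
Difference in mean inclusion rate, RBM47 minus control (fraction, horizontal axis), with 1 point per event for PDGFA and VEGFA and for each gene list (rows). PDGFA stands at 0.617, VEGFA events run from -0.108 to 0.0885, and no event of the other lists reaches 0.2 in either direction (dotted lines).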

How the data were processed

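The authors mapped paired-end RNA-seq reads to cassette exon junctions, and the labels name TopHat. The study's methods name STAR and hg19 for RNA-seq of cell lines in general, and the aligner and build behind this table are not given in the sources used here. The positions given for the PDGFA and VEGFA events differ from those of the matched GRCh37 (hg19) exons, so they are not hg19 positions. The deposited table held an inclusion rate per sample as a fraction, the group averages of these fractions, and read counts of including and of skipping junctions, which the authors had added up over each group's 3 samples. The authors' own differences, odds ratios and Fisher p-values were not used.

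Rates were re-matched to rows through the printed averages, within 3e-09. Of 1392 rows, 1122 matched on both averages, 253 on the RBM47 average alone, and 17 were left without rates. The read totals were tested anew by a two-sided Fisher's exact test (scipy 1.17.1, adjusted with statsmodels 0.14.6). limma 3.58.1 (R 4.3.3) was fitted to the arcsine square root of the rates of 6000 events. It used a variance trend on log2 reads and Benjamini-Hochberg adjustment. A trial on simulated data planted changes only in well-read events of intermediate rate, so it does not cover low rates. The labels do not say that replicates were separate cultures, so limma p-values measure only the spread between these samples. Fisher p-values rest on reads pooled over a group and cover counting error only, not that spread.

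The rule for named genes took all PDGFA and VEGFA events, every event of the lists that limma called, the 4 largest others past the study criteria in each list, and the nearest 3 events for each PDGFA or VEGFA event with a mean rate of 0.1 to 0.9. No list event met it, so the list events named were chosen after their values were seen. One of the events nearest to PDGFA is not reported here. The members and gene lists were chosen with earlier results of these data known. PIGF was dropped from the ligands because that symbol names an unrelated gene. Sequences were read from GRCh37 by exon coordinates in GENCODE. Alternatives were other transformations, thresholds and read totals, leaving out each sample, and a replicate block.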

Additional observations from a re-analysis of the deposited data

How the results depend on the processing

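Differences for PDGFA and VEGFA are given as RBM47 minus control. Sample rates of the rows as deposited, which belong to other events, reversed PDGFA to -0.439, the VEGFA exon 6 events with 121 and 72 control reads to 0.140 and 0.00264, and exon 7 to -0.00448, and gave -0.0368 for the exon 6 event with 71. The averages printed in the PDGFA row gave -0.160. Rates from summed reads gave -0.189, -0.146 and -0.138 for the exon 6 events with 121, 72 and 71 control reads. With the including reads multiplied by 0.5 they gave -0.0856 and -0.0806 for those with 72 and 71. Including reads in the totals exceed those counted in the rates. Leaving out 1 sample gave 0.594 to 0.642 for PDGFA and -0.00733 to 0.156 for VEGFA exon 7, which changed sign without RBM47 replicate 3. The growth factor count under the study criteria rose from 0 to 1 with a difference of at least 0.1 or with summed reads. That event was in BMP1, a protease and not a growth factor. The PDGFA fold of 12.0 was 6.02 with rates from the totals and 3.97 with plain read shares, an alternative chosen after seeing the data. The limma count over growth factors was 0 under every alternative run. GDF5 events were also dropped from that count, a choice made after seeing the data, with no new fit. Growth factor differences ran only from -0.172 to 0.125, so no event could reach 0.2 with all 6 samples kept. Those counts were thus fixed at 0 in advance, except the one with no minimum difference. A replicate block cannot change a difference of group means, so the PDGFA difference stayed at 0.617. The limma count with the block, 0, was fixed in advance as above. Deviations of same-numbered samples correlated at -0.0225, -0.00550 and 0.0139, and no pairing was taken from them. Reads per sample were not given or worked back from the rates, and they limit the precision of every rate.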
